A study of Mus musculus with 6 samples.

Results

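The Hoxa cluster genes are homeobox genes that lie side by side on mouse chromosome 6. They were taken by symbol from the deposited count tables as Hoxa2, Hoxa3, Hoxa4, Hoxa5, Hoxa7, Hoxa9, Hoxa10, Hoxa11 and Hoxa13, which are 9 of the 53762 genes listed. RNA sequencing was done on immortalized mouse embryonic fibroblasts (MEFs), grown in high-glucose DMEM with serum and collected 24 hours after seeding. There were 3 libraries of PME-1 knockout (KO) cells and 3 libraries of wild-type (WT) cells. PME-1 is the enzyme, encoded by Ppme1, that demethylates the catalytic subunit of the phosphatase PP2A. The genotype field of KO libraries 2 and 3 names PME-2 and PME-3, while all 3 titles name PME-1, and the titles were followed. The labels give no age of the embryos, no number of embryos or clones and no statement that replicates were separate cultures, so p-values measure the spread between these libraries, which may be technical.

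HOX genes encode transcription factors that bind DNA through a homeodomain and give cells their position along the body axis and along the limb. Within a cluster, the genes at one end are switched on early and act towards the head, and the genes at the other end act towards the tail and, in limbs, towards the fingers and toes. Fibroblasts are known to keep part of the HOX pattern of the place in the body they came from. Polycomb proteins hold clustered HOX genes silent and Trithorax proteins hold them active, and many HOX proteins bind DNA together with the TALE factors of the PBX and MEIS families.

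Total counts ranged from 34450993 to 44116310 per library, and a floor of 3 counts equals 0.0689 to 0.0881 CPM (counts per 1000000 counts of the TMM-scaled library). Ppme1 had 18.2, 14.9 and 18.9 CPM in KO libraries 1 to 3, against 78.4, 80.7 and 86.6 CPM in WT libraries 1 to 3, so it was 4.72-fold lower in KO cells (adjusted p = 0.000563) and its transcript was still counted there, at 636 to 705 counts per library. The noncoding RNA Xist was at 0.117 to 0.31 CPM in KO libraries and at 369.7 to 490.0 CPM in WT libraries, and the Y-linked Ddx3y had 1988 to 3061 counts in KO libraries and 0 in each WT library, so sex markers and genotype cannot be told apart in any difference given here. Libraries numbered 1 stood apart: the chi-square per degree of freedom between libraries was 13.1 for KO 2 and KO 3 and 12.7 for WT 2 and WT 3, but 82.3 to 200 for the other 13 pairs, and WT 1 was closer to KO 2 (90.1) and KO 3 (82.3) than to WT 2 (128) and WT 3 (115). The fibroblast label was checked on 8 markers: Col1a1, Col1a2 and Vim were at 2198.8 CPM or more in all 6 libraries, but Thy1 was at 4.58 to 9.36 CPM in KO libraries and 1.03 to 3.47 CPM in WT libraries, Pdgfra at 2.53 to 8.95 CPM in KO libraries and 4.72 to 14.2 CPM in WT libraries, and Col3a1 at 797.5 to 2761.8 CPM in KO libraries and 525.4 to 3539.4 CPM in WT libraries. The 8 markers summed to 9092 to 10598 CPM in KO libraries and 11532 to 17704 CPM in WT libraries. By edgeR 3 were lower and 0 higher, by DESeq2 4 lower and 1 higher, and by limma-voom 3 lower and 0 higher. In edgeR, 5 of 8 had an unadjusted p under 0.05. The share of all tested genes at that unadjusted cut was not computed. Counts at it, here and in later lists, therefore cannot be set against a background. Over all 15223 genes tested, edgeR called 7.4% at an adjusted p under 0.05. Of 6 epithelial markers, summed at 61.2 to 117.6 CPM in KO and 2.44 to 2.89 CPM in WT libraries, Krt18 and Krt8 rose (DESeq2 called 3 higher), and Cldn4 had 0.493 to 2.51 CPM in KO libraries and 0.0924 to 0.298 CPM in WT libraries, without overlap, while Epcam stayed between 0.194 and 1.18 CPM, Cdh1 between 0 and 0.436 CPM, and Krt5 was at 0 in all libraries. Of the tested markers of other lineages, endothelial Tek rose (1 of 2), neural Sox2 rose and Map2 fell (2 of 4), and 0 of 1 blood, 0 of 1 muscle and 0 of 1 pluripotency markers were called by edgeR, DESeq2 or limma-voom or had an unadjusted p under 0.05 in edgeR. The 5 neural markers summed to 210.6 to 473.6 CPM in KO libraries and 133.4 to 248.5 CPM in WT libraries. All 4 tested neural markers had an unadjusted p under 0.05 in edgeR, and DESeq2 called 2 higher and 1 lower. The endothelial, blood, muscle and pluripotency lists each stayed at or under 4.94 CPM in every library. Ptprc had 0 counts in KO cells and 7 in WT cells, Pecam1 4 in KO cells and 8 in WT cells, and Myod1 and Zfp42 were at 0 in all libraries. The part of these differences in the results on Hoxa genes was not tested. In bulk RNA, fewer cells of a type and less RNA per cell cannot be told apart.

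In the GENCODE M21 annotation of GRCm38 the 9 genes lie between bases 52162417 and 52260880 of chromosome 6, a stretch of 98.5 kb, all on the minus strand. The submitters' processing notes name a human build although the symbols are those of mouse genes, so positions come from the annotation alone. Hoxa7 (52214491 to 52221854) stands in the middle of the cluster, and Hoxa10 (52231197 to 52240854) and Hoxa11 (52242106 to 52245810) stand near its posterior end, with Hoxa13 (52257694 to 52260880) as the last gene. Between Hoxa7 and Hoxa10 lies Hoxa9 (52223100 to 52231089). The anterior genes are Hoxa2 (52162417 to 52164831), Hoxa3 (52169062 to 52213336), Hoxa4 (52189671 to 52191753) and Hoxa5 (52201754 to 52204587), of which Hoxa4 and Hoxa5 lie within the long span of Hoxa3. Several genes share exonic sequence with transcripts of the other strand: 35.0% of the Hoxa11 exons with Hoxa11os, 20.4% of the Hoxa7 exons with Hoxaas3, 25.4% of the Hoxa3 exons and 16.0% of the Hoxa4 exons. The library kit keeps strand, but the strand setting of the counting is not given in the sources used here, so reads of such a gene and its antisense partner cannot be told apart. On the same strand, 15.0% of the Hoxa2 exons and 8.0% of the Hoxa3 exons are shared with a read-through transcript.

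The promoters of the 3 genes that passed the test, described below, are shown so that their sequence can be read beside the values. They are RefSeq windows on GRCm38.p6, from 250 bases before to 50 bases after a transcript start, on the minus strand. Capitals mark TTTATG, a core that CDX and posterior HOX factors share, and TGATNNAT, which HOX proteins bind together with PBX, both searched on either strand. Matches in these windows do not overlap each other. The Hoxa7 window is chr6:52218524-52218823, those of Hoxa10 are chr6:52240805-52241104 and chr6:52234890-52235189, and that of Hoxa11 is chr6:52245761-52246060. The Hoxa7 window lies inside the annotated span of the gene (52214491 to 52221854), so its start is an internal one and not the upstream end of the gene.
Hoxa7: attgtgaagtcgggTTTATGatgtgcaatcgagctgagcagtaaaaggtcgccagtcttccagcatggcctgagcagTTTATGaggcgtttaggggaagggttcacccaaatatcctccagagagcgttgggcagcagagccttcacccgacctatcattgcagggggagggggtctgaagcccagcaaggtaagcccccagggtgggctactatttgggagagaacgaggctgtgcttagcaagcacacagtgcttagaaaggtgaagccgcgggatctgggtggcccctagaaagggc
Hoxa10 upstream start: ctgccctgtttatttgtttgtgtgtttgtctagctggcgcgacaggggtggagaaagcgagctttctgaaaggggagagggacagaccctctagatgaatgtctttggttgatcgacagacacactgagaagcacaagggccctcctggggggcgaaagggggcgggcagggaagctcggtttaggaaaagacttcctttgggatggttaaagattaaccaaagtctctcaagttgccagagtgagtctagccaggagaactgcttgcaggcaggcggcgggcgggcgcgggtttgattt
Hoxa10 downstream start: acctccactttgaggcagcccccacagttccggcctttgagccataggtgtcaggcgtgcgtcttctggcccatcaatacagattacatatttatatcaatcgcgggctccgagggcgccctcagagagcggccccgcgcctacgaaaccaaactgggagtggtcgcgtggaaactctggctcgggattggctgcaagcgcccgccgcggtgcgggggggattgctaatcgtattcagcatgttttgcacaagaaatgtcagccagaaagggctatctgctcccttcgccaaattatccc
Hoxa11: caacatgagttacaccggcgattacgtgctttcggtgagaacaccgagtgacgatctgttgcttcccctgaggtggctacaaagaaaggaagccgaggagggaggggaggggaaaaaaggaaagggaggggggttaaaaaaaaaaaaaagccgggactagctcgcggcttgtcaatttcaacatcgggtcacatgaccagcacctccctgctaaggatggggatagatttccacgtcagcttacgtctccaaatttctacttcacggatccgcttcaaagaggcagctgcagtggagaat

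Windows were found for 8 of the 9 genes. The core TTTATG stood 236 and 173 bases before the internal Hoxa7 start used here. It stood in 0 of the windows of the other 7 genes, and 11.9% of 32851 mouse promoter windows hold it. The composite TGATNNAT stood 111 bases before the Hoxa2 start and in no other of these windows, and 8.85% of all windows hold it. The Hoxa7 window was 55.7% G or C with 9 CpG dinucleotides, that of Hoxa11 51.0% with 15, and those of Hoxa10 54.3% with 12 and 57.3% with 21, whereas that of Hoxa13 reached 81.0% with 45. The medians over all windows were 52.7% and 7 CpG. A match is a description of these letters and not a bound site.

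All 9 genes had reads in every library, from 8 counts of Hoxa2 in WT 1 to 4918 counts of Hoxa11 in WT 3, and none was at 0. All 9 passed the filter on low counts. Hoxa2 passed it through the KO libraries, of which 3 reached the filter level of 0.246 CPM, against 1 WT library, so its difference is partly set by the filter. Levels were low at the anterior end and high towards the posterior end in both groups. Genes were compared per kilobase of exon, with the length taken over all annotated exons of a gene. Which transcripts were expressed was not tested, and the order of genes depends on these lengths. On this scale Hoxa11 was the most abundant, with 20.7 ± 2.06 CPM per kb in KO cells and 42.6 ± 10.9 CPM per kb in WT cells (SD, n = 3 each). Hoxa2, at the anterior end, was the lowest with 0.285 ± 0.11 CPM per kb in KO cells and 0.137 ± 0.0283 CPM per kb in WT cells.

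In KO cells the order per kb was Hoxa11, Hoxa10, Hoxa7, Hoxa13, Hoxa9, Hoxa5, Hoxa4, Hoxa3 and Hoxa2, and the ranges of neighbours in this order did not overlap. By their means in WT cells it was Hoxa11, Hoxa10, Hoxa13, Hoxa9, Hoxa7, Hoxa5, Hoxa4, Hoxa3 and Hoxa2. There Hoxa11 (30.0 to 49.4 CPM per kb) overlapped Hoxa10 (18.7 to 30.6), Hoxa13 (4.95 to 8.36) overlapped Hoxa9 (5.33 to 6.63), and Hoxa9 overlapped Hoxa7 (4.41 to 6.23). Within each WT library, Hoxa11 was still above Hoxa10, at 30.0, 48.3 and 49.4 CPM per kb for Hoxa11 and 18.7, 27.5 and 30.6 CPM per kb for Hoxa10 in WT libraries 1 to 3. The order of the other 3 genes was not the same in all WT libraries: in WT 1, Hoxa7 (6.23 CPM per kb) was above Hoxa9 (5.33) and Hoxa13 (4.95), and in WT 2 and WT 3 it was below both. In the 3 KO libraries Hoxa7 was above both, so WT 1 shared this order with them.

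**Figure D1:**
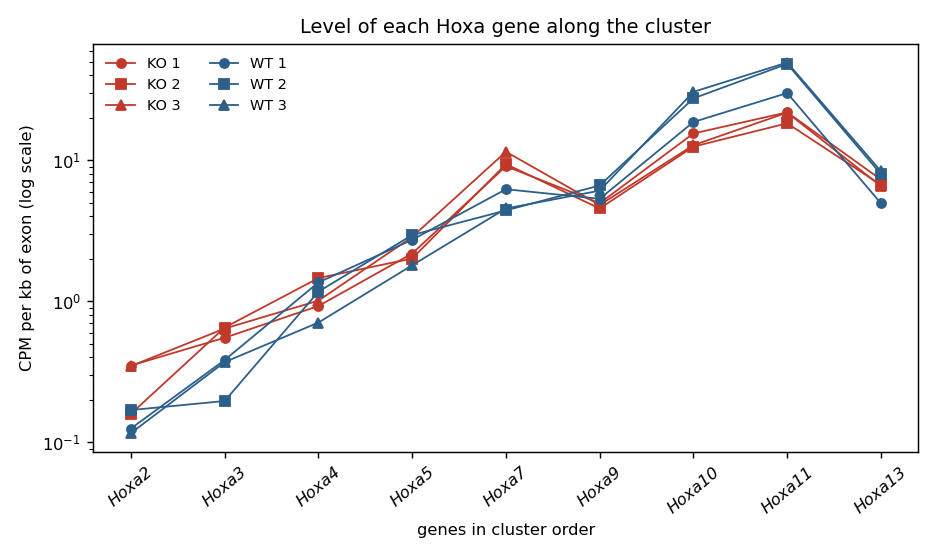
Level of each Hoxa gene per kilobase of exon (y axis, CPM per kb, log scale) in cluster order (x axis), with 1 line per library, KO in red and WT in blue, and the marker shape giving the library number. Levels peak at Hoxa11 in all 6 libraries, and the KO lines lie above the WT lines at Hoxa7 and below them at Hoxa10 and Hoxa11.

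The comparison of KO with WT cells asks how the genes differ between cells labelled as PME-1 knockout and wild-type cells. Hoxa7 rose, Hoxa10 and Hoxa11 fell, and the other 6 genes were not called. Of all 15223 genes tested, 7.4% were called by edgeR at an adjusted p under 0.05, 3.55% higher and 3.86% lower in KO cells. The groups did not overlap for 5 of the 9 Hoxa genes, against 30.0% of all tested genes. The median log2 fold change of the 9 genes was -0.05 and that of all tested genes 0.01. The same 1 higher and 2 lower calls came from counts with DESeq2 and limma-voom.

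Hoxa7, which helps to pattern the thoracic part of the axial skeleton, had 26.1, 27.0 and 33.0 CPM in KO libraries 1 to 3, against 17.9, 12.7 and 13.1 CPM in WT libraries 1 to 3. Every KO library was above every WT library, and WT 1 was the WT library nearest to the KO group. The rise was 1.97-fold (log2 fold change 0.98, SE 0.19, adjusted p = 0.0271). Its antisense neighbour Hoxaas3 had 0.0294 to 1.91 CPM in KO libraries and 0.23 to 0.472 CPM in WT libraries. Per kb, Hoxaas3 averaged 0.273 CPM in KO cells and 0.129 CPM in WT cells, where Hoxa7 averaged 9.98 CPM in KO cells and 5.06 CPM in WT cells. The call was lost without KO 2 (adjusted p = 0.0915), KO 3 (0.115), WT 2 (0.114) or WT 3 (0.126), at log2 fold changes from 0.875 to 1.029.

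Hoxa10, which acts in the uterus, the lumbar spine and the proximal limb, had 50.7, 40.7 and 41.7 CPM in KO libraries 1 to 3, against 61.3, 89.9 and 100 CPM in WT libraries 1 to 3. The groups did not overlap, but WT 1 lay closer to the KO libraries than to WT 2 and WT 3. The fall was 1.89-fold (log2 fold change -0.92, SE 0.20, adjusted p = 0.0425). The call was lost without KO 2 (adjusted p = 0.16), KO 3 (0.168), WT 2 (0.153) or WT 3 (0.156), and also with upper-quartile factors (0.0698), library sizes alone (0.0831) and when genes under a mean of 5 CPM were dropped (0.0563).

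Hoxa11, which is needed for the forearm and lower leg bones and for the kidney together with its paralogs, had 50.2, 41.8 and 49.9 CPM in KO libraries 1 to 3, against 68.6, 110.5 and 112.9 CPM in WT libraries 1 to 3. All KO libraries were below all WT libraries, and WT 1 again lay nearest to them. The fall was 2.06-fold (log2 fold change -1.04, SE 0.21, adjusted p = 0.0314). The call was lost without KO 1 (adjusted p = 0.0543), KO 2 (0.126), KO 3 (0.117), WT 2 (0.119) or WT 3 (0.126) and with library sizes alone (0.0575). Its antisense transcript Hoxa11os had 43.9, 25.5 and 28.3 CPM in KO libraries 1 to 3, against 37.0, 79.7 and 66.1 CPM in WT libraries 1 to 3. These values overlapped, since KO 1 was above WT 1, and the difference was not called (log2 fold change -0.90, SE 0.33, adjusted p = 0.162). Hoxa11os held 0.567 to 0.875 reads for each Hoxa11 read in KO libraries and 0.54 to 0.722 in WT libraries.

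**Figure D2:**
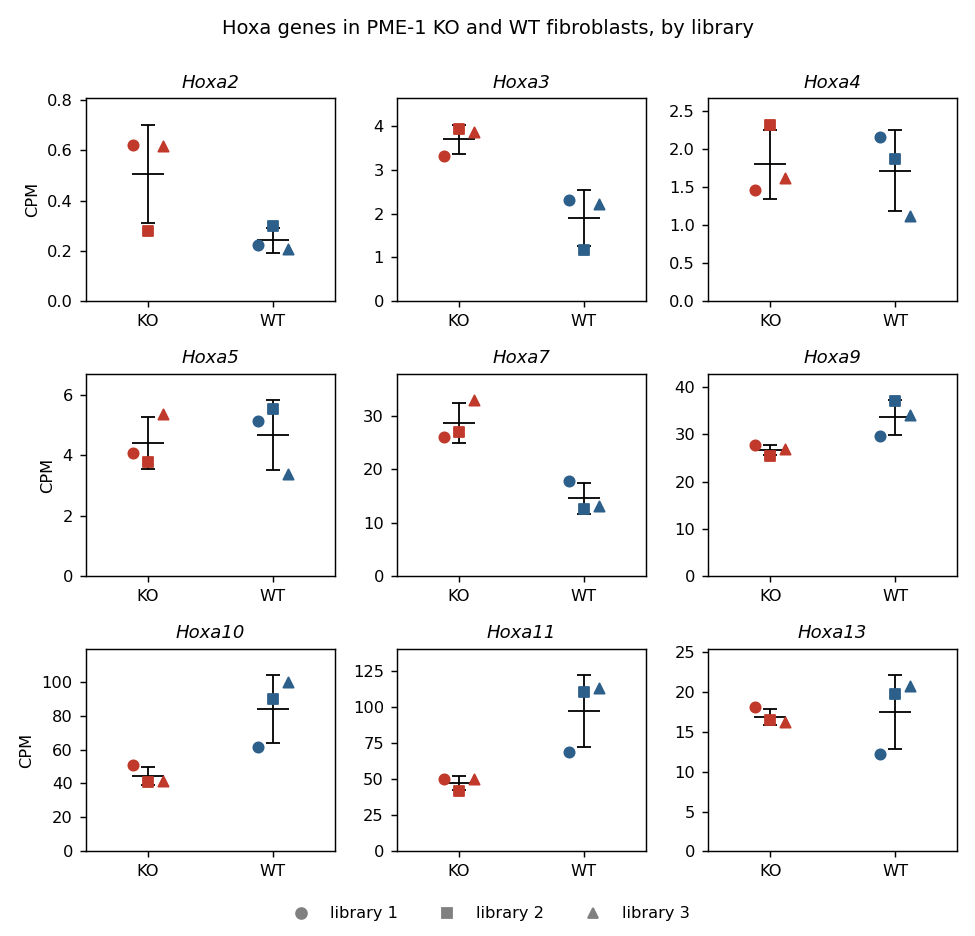
CPM (y axis, linear, from 0) of each of the 9 Hoxa genes in the KO (left, red) and WT (right, blue) libraries, with the marker shape giving the library number and black bars giving mean ± SD of 3 libraries. The groups are apart for Hoxa3, Hoxa7, Hoxa9, Hoxa10 and Hoxa11, and WT 1 (circle) is the lowest WT library for Hoxa9, Hoxa10, Hoxa11 and Hoxa13.

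Between the gene that rose and the pair that fell stands Hoxa9, known for its part in blood progenitors and leukaemia. It had 27.7, 25.4 and 26.9 CPM in KO libraries 1 to 3, against 29.7, 37.0 and 34.0 CPM in WT libraries 1 to 3. The groups did not overlap, but the difference was not called (log2 fold change -0.33, SE 0.13, adjusted p = 0.181). Hoxa13, the gene of the hands, feet and genital tubercle, had 18.1, 16.5 and 16.2 CPM in KO libraries 1 to 3, against 12.2, 19.7 and 20.7 CPM in WT libraries 1 to 3. Here WT 1 was below all KO libraries and WT 2 and WT 3 above them, and the log2 fold change was -0.05 (SE 0.22, adjusted p = 0.923), turning to 0.015 with upper-quartile factors and 0.009 with library sizes alone.

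The anterior genes were low. Hoxa3, which is needed for the thymus and parathyroid glands, had 3.31, 3.92 and 3.85 CPM in KO libraries 1 to 3, against 2.3, 1.18 and 2.23 CPM in WT libraries 1 to 3. The groups did not overlap, and the log2 fold change of 0.96 (SE 0.34) was not called (adjusted p = 0.153). Hoxa2, which sets the identity of the second pharyngeal arch, had 24, 12 and 21 counts in KO libraries 1 to 3, against 8, 13 and 9 counts in WT libraries 1 to 3. KO 2 lay within the WT range, and the log2 fold change of 1.04 (SE 0.56) was not called (adjusted p = 0.335).

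Hoxa4, a gene of the neck vertebrae, had 57, 99 and 55 counts in KO libraries 1 to 3, against 78, 81 and 49 counts in WT libraries 1 to 3. Hoxa5, which acts in lung and respiratory development, had 158, 161 and 183 counts in KO libraries 1 to 3, against 185, 240 and 147 counts in WT libraries 1 to 3. Both overlapped between the groups, with log2 fold changes of 0.07 (SE 0.38, adjusted p = 0.94) for Hoxa4 and -0.09 (SE 0.29, adjusted p = 0.901) for Hoxa5. With SEs of this size, even Hoxa3 was not called at a log2 fold change of 0.96 (SE 0.34). Changes of that size or smaller in Hoxa4 and Hoxa5 could therefore be missed.

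**Figure D3:**
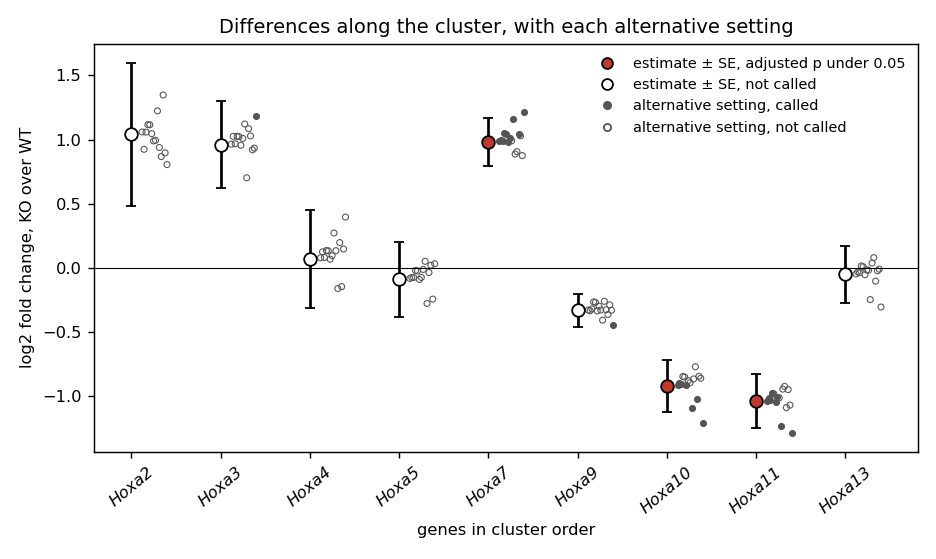
Log2 fold change, KO over WT (y axis), of each Hoxa gene in cluster order (x axis). Large points with bars are the edgeR estimates ± SE, red where the adjusted p is under 0.05, and small points are the alternative settings, dark where called. Hoxa2, Hoxa3 and Hoxa7 stay above 0 and Hoxa9, Hoxa10 and Hoxa11 below 0 in each setting that tested them. Hoxa4, Hoxa5 and Hoxa13 lie on both sides of 0.

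The mixture of Hoxa transcripts differed as well. The 9 genes summed to 182.2, 161.8 and 179.1 CPM in KO libraries 1 to 3, against 199.6, 278.7 and 287.5 CPM in WT libraries 1 to 3. Hoxa7 took 16.5 ± 2.06% of the reads of the 9 genes in KO cells and 6.03 ± 2.56% in WT cells (SD, n = 3 each). Hoxa11 took 27.1 ± 1.02% in KO cells and 37.8 ± 2.92% in WT cells, and Hoxa10 took 25.4 ± 2.26% in KO cells and 32.6 ± 2.07% in WT cells. Hoxa13, whose CPM overlapped between the groups, took 9.71 ± 0.609% in KO cells and 6.8 ± 0.58% in WT cells. Per kb, Hoxa7 stood at 0.414, 0.513 and 0.526 of the Hoxa11 level in KO libraries 1 to 3, against 0.208, 0.0913 and 0.0922 in WT libraries 1 to 3, so this ratio did not overlap and WT 1 was the WT library nearest to the KO group. A share depends on the sum over the 9 genes, so the shares are not independent of each other.

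**Figure D4:**
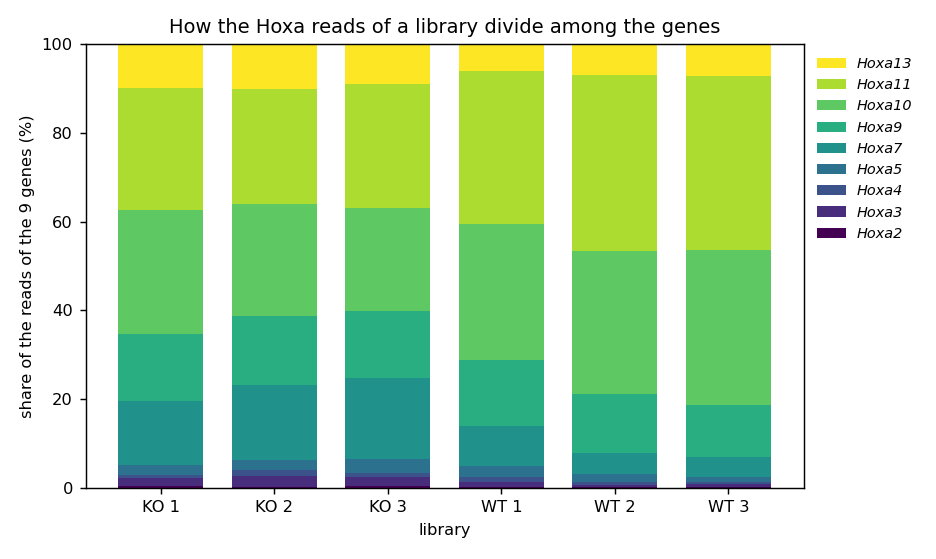
Share of the reads of the 9 Hoxa genes (y axis, %) taken by each gene in each library (x axis, KO left and WT right), stacked in cluster order from Hoxa2 at the bottom to Hoxa13 at the top. Hoxa7 holds 14.3 to 18.4% in KO libraries and 4.55 to 8.98% in WT libraries, and Hoxa11 holds 25.9 to 27.8% in KO libraries and 34.4 to 39.6% in WT libraries.

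Because the libraries numbered 1 stood apart, the test was repeated without KO 1 and WT 1. Hoxa7 was then higher (log2 fold change 1.217, SE 0.13) and Hoxa10 and Hoxa11 lower (-1.205, SE 0.08, and -1.287, SE 0.09). Hoxa3 (1.186, SE 0.36, adjusted p = 0.0164) and Hoxa9 (-0.442, SE 0.10, adjusted p = 0.00321) were called too, which made 5 of the 9 genes, against 48.0% of all 15449 genes tested in that setting. With 2 libraries per group that are much alike, such calls measure a narrow spread.

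Across the 6 libraries Hoxa9, Hoxa10 and Hoxa11 moved together, and Hoxa13 followed them less closely. On log2(CPM + 0.5), Pearson's r with Hoxa11 was 0.98 for Hoxa10, 0.98 for Hoxa9 and 0.45 for Hoxa13, and it was -0.95 for Hoxa7 and -0.89 for Hoxa3. Hoxa3 and Hoxa7 had r = 0.91 with each other. These are descriptions over 6 libraries that fall into the 2 genotypes and share their scaling. Among 10761 genes that averaged 5 CPM or more, the 5 whose pattern was most like that of Hoxa11, the Hoxa gene with the highest mean CPM, were Mboat7 (r = 0.9979), Mcm7 (0.9933), Sec23a (0.9933), Dctn1 (0.9932) and Tbx18 (0.9929).

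Noncoding transcripts of the cluster were scarce apart from Hoxa11os. Of the 5 read here, edgeR, DESeq2 and limma-voom called 0 (1, Hoxa11os, had an unadjusted p under 0.05 in edgeR). Hotairm1, beside the anterior end, had 104, 105 and 119 counts in KO libraries 1 to 3, against 135, 90 and 98 counts in WT libraries 1 to 3. Hottip, known from human cells to act on the posterior HOXA genes, had 21, 14 and 8 counts in KO libraries 1 to 3, against 16, 20 and 9 counts in WT libraries 1 to 3. Hoxaas2 had 34 counts over the KO libraries and 12 over the WT libraries. Hoxaas3 had 93 counts in KO cells, most of which (74) came from KO 1, and 45 in WT cells.

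On either side of the cluster lie Snx10, Cbx3 and Skap2 and, past Hoxa13, Evx1, Hibadh, Tax1bp1 and Jazf1. Skap2, the next coding gene before the cluster, had 64.3, 42.1 and 44.5 CPM in KO libraries 1 to 3, against 44.2, 67.0 and 63.6 CPM in WT libraries 1 to 3, which overlapped (log2 fold change -0.21, SE 0.22, adjusted p = 0.641). Evx1, the homeobox gene past Hoxa13, was at 0 counts in all 6 libraries, and the noncoding Halr1 had 4 counts over the KO and 3 over the WT libraries. Of the 6 neighbours tested, edgeR called 1 higher and 0 lower, DESeq2 2 higher and 0 lower, and limma-voom 1 higher and 0 lower. Every KO library was above every WT library for 2 of the 6 and below for 3. The groups did not overlap for 30.0% of all tested genes, and edgeR called 7.4% of all tested genes. In edgeR, 3 of the 6 neighbours had an unadjusted p under 0.05. The edgeR call was Snx10, at 46.4 ± 0.962 CPM in KO cells and 33.4 ± 2.05 CPM in WT cells (SD, n = 3 each, adjusted p = 0.0413). Its call was lost without KO 1, KO 2, KO 3, WT 2 or WT 3 (adjusted p up to 0.179). The log2 fold changes of Cbx3, Hibadh and Tax1bp1 were -0.19, -0.12 and -0.28, and Jazf1 had 1.91 ± 0.773 CPM in KO cells and 0.587 ± 0.206 CPM in WT cells (adjusted p = 0.089).

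The other HOX clusters were read the same way. Of 10 Hoxb genes 0 passed the filter on low counts, and their summed level did not exceed 0.235 CPM in a KO library or 0.166 CPM in a WT library. Of 9 Hoxc genes 3 were tested, each through the KO libraries alone, with 185 counts of Hoxc10, 79 of Hoxc9 and 69 of Hoxc6 over the KO libraries and 0 over the WT libraries. Hoxc9 lost its call without any 1 of the 6 libraries (adjusted p from 0.0521 to 0.142), Hoxc6 without any but WT 1 (up to 0.113) and Hoxc10 without KO 3 (0.0606). The Hoxd genes summed to 160.1 to 183.6 CPM in KO libraries and 174.9 to 209.5 CPM in WT libraries. Of 6 Hoxd genes tested, Hoxd12 was called higher and Hoxd8, Hoxd9 and Hoxd10 lower, where edgeR called 7.4% of all tested genes. Among the group-10 paralogs, Hoxa10 and Hoxd10 were lower, while Hoxc10 went the other way, with counts in the KO libraries alone. When 1 library was left out, Hoxd9 kept its call in 6 of 6 settings, Hoxd12 in 3, Hoxd8 in 2 and Hoxd10 in 1.

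Among the TALE cofactors, Meis3 rose and Pbx3 fell. Meis3 averaged 11.3 ± 2.51 CPM in KO cells and 4.33 ± 1.21 CPM in WT cells (SD, n = 3 each, adjusted p = 0.0342). Pbx3 averaged 30.7 ± 2.0 CPM in KO cells and 44.2 ± 3.56 CPM in WT cells (SD, n = 3 each, adjusted p = 0.0442). Neither gene overlapped between the groups. Leaving out 1 library ended the call of Meis3 in 6 of 6 settings (adjusted p up to 0.138) and of Pbx3 in 5 (all but that without WT 1, adjusted p up to 0.18).

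Over all genes tested, edgeR called 7.4%. The calls in the next lists, 1 of 23 Polycomb genes and 1 of 12 Trithorax genes, are near that share. Of 23 Polycomb genes 1 fell and 0 rose in edgeR (2 and 0 in DESeq2, 1 and 0 in limma-voom, with 6 at an unadjusted p under 0.05). The gene was Cbx2, a chromobox reader, at 15.3 ± 1.40 CPM in KO cells and 25.5 ± 3.63 CPM in WT cells (SD, n = 3 each, adjusted p = 0.0405, and up to 0.161 without 1 library, with the call lost without KO 1, KO 2, KO 3, WT 2 or WT 3). Of 12 Trithorax-group and related genes 1 fell and 0 rose in edgeR, DESeq2 and limma-voom (4 at an unadjusted p under 0.05 in edgeR). It was Kdm6a, an X-linked H3K27 demethylase known to escape X inactivation, at 31.6 ± 1.68 CPM in KO cells and 61.9 ± 7.88 CPM in WT cells (SD, n = 3 each, adjusted p = 0.00752), and it moved with the Xist and Y-linked differences between the groups.

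The remaining lists gave no call in edgeR. That was so for 8 architectural factors such as Ctcf (0 called, 1 at an unadjusted p under 0.05, 1 lower in DESeq2 and 0 in limma-voom) and 12 tested genes of the retinoic acid pathway, which induces anterior HOX genes in embryos (0 called, 5 at an unadjusted p under 0.05, 2 higher in DESeq2 and 0 in limma-voom). It was also so for 3 tested embryonic regulators, of a list of 8 that holds the Cdx genes, and for 2 tested genes of 4 reported downstream of HOXA13 in mouse limbs (0 called in each list, 1 at an unadjusted p under 0.05, 1 lower in DESeq2 and 0 in limma-voom). The last list summed to 1.58 to 2.18 CPM in KO libraries and 7.02 to 16.1 CPM in WT libraries, with a median log2 fold change of -2.78 over its 2 tested genes.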

How the data were processed

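The authors deposited raw read counts per gene symbol, 1 table per library with 53762 symbols, for 3 KO and 3 WT libraries. Per the submitters' processing notes, Trim Galore 0.6.6, HISAT2 2.2.1 and the human build hg38 were used. How reads were assigned to genes is not stated in those notes or the labels. Groups follow the titles. Exon lengths and positions were taken from GENCODE M21 (GRCm38), which holds 92.9% of the symbols.

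KO and WT counts were compared with the quasi-likelihood test of edgeR 4.0.16 (R 4.3.3) after filterByExpr, with TMM factors and a robust fit. P-values of the 15223 genes kept were adjusted by Benjamini and Hochberg's method, and genes under 0.05 were called. All adjusted p-values are edgeR's unless another tool is named. CPM are counts divided by TMM-scaled library size. The SE is the log2 fold change divided by the square root of F. Alternatives were DESeq2 1.42.0, limma-voom (limma 3.58.1), other factors and filters, a replicate block and libraries left out. Counting floors cover counting error only.

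The members, gene lists and alternatives were chosen with earlier results of these data known. The genes named are the 9 members, the listed transcripts and neighbours of the cluster, up to 4 called genes per other list, and the 5 genes most like Hoxa11. Col1a2, Col3a1, Vim, Thy1, Pdgfra, Cldn4, Epcam, Cdh1, Krt5, Ptprc, Pecam1, Myod1 and Zfp42 are named beyond that, after a look at their values. One result among the cofactors is not reported here.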

Additional observations from a re-analysis of the deposited data

How the results depend on the processing

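Main values were 1 Hoxa gene higher, 2 lower and 1127 genes called in all. Hoxa7 kept its direction and its call in 10 of 15 alternative settings, Hoxa11 in 8 and Hoxa10 in 7, and in the remaining settings these genes kept their direction but not their call. With the replicate number as a replicate block, 0 Hoxa genes were called higher and 0 lower, among 8 genes called in all (adjusted p = 0.226 for Hoxa7, 0.288 for Hoxa10 and 0.23 for Hoxa11). Deviations from group means of libraries with the same number correlated at -0.65, -0.45 and -0.40, and no library correlated best with its own number. In both groups library 1 stood apart from the others, so these values cannot decide whether libraries of equal number share a batch. Without both libraries numbered 1, there were 2 Hoxa genes higher and 7408 genes called in all. DESeq2 called 1956 genes. Hoxa genes called lower numbered 1 with upper-quartile factors, 0 with library sizes alone and 1 among genes averaging 5 CPM or more, where 4 Hoxa genes drop out of the test. With 1 library left out, the count of Hoxa genes higher ranged from 0 to 1, of those lower from 0 to 2 and of all genes called from 332 to 1216. The causes of these shifts were not tested. Log2 fold changes near 0 changed sign: Hoxa13 to 0.015 with upper-quartile factors and 0.009 with library sizes alone, Hoxa5 to 0.032 without both libraries numbered 1, and, with 1 library left out, Hoxa13 ranged from -0.247 to 0.08, Hoxa5 from -0.277 to 0.051 and Hoxa4 from -0.161 to 0.272. No scaling moved the median of all genes by more than 0.08 on the log2 scale. Depth limits Hoxa2 most, with 8 to 24 counts per library.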
